A study of Mus musculus with 3 samples.

Results

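Replicate 1 of an ETO2 chromatin immunoprecipitation (ChIP) in FLK1+ mesoderm held 358 distal peaks that had neither a counterpart in replicate 2 nor a GATA motif at their summit. They were selected from the 2335 peaks of replicate 1. Of these, 1332 overlapped no replicate 2 peak by 1 bp or more, 1066 of those had a midpoint more than 1 kb from every protein-coding transcription start site, and 358 of the latter lacked the GATA motif WGATAR (GATA preceded by A or T and followed by A or G, on either strand) in the 100 bp around the summit. These 358 peaks are called the members. In all replicate 1 peaks, 57.0% had no overlap with replicate 2 and 64.1% held WGATAR in that window.

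The cells were wild type mouse embryonic stem (ES) cells of the C57Bl/6 X Sv129 background, differentiated in vitro into embryoid bodies and taken at day 4 per the sample labels, whereas the series description gives an earlier day. FLK1 is the VEGF receptor that marks mesoderm able to form blood and vessels. ETO2 ChIP replicates 1 and 2 (antibody sc-9741x) and 1 input, chromatin set aside before immunoprecipitation, shared this material. No treatment or altered allele was named for any of them. Peaks were called in replicate 1 against the input and in replicate 2 without it. The lists carried the same ChIP name, and whether they came from separate immunoprecipitations was not tested. A position without a replicate 2 peak has no listed value in replicate 2, so the signal of the members there is unknown, and no value of a member can be tested over replicates. Expression was not measured in these libraries, so the label of the cells was not checked against marker genes.

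ETO2, the product of Cbfa2t3, is a co-repressor that does not bind DNA on its own. It is brought to chromatin by partner proteins, foremost the complex of the basic helix-loop-helix factor SCL, which reads E-boxes (CANNTG) as a dimer with an E-protein, the bridging proteins LMO2 and LDB1, and a GATA factor that reads WGATAR. ETS and RUNX factors are common neighbours of this complex at enhancers of blood and vessel genes.

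The sequences at the strongest members are shown first, because they fell into different kinds. All are from mouse build mm9, plus strand, and cover the 100 bp around the summit of the 6 members with the highest fold enrichment, leaving out 2 whose sequence is not printed here. Capitals mark the ETS core AGGAA or its complement TTCCT, the only motif of a list of 25 that passed the test described further on. The Mast4 window held it, as did both windows not printed (Epb4.1l4a and Kctd1), and the other 5 did not. The Mast4 member is in an intron of Mast4, and the other 5 are intergenic and named by the nearest protein-coding start site. They lie at chr17:4626356-4626455 (Arid1b), chr14:104736145-104736244 (Pou4f1), chr11:25000124-25000223 (5730522E02Rik), chr1:71983393-71983492 (Gm5528), chr13:104013309-104013408 (Mast4) and chr1:72056197-72056296 (Gm5528).
Arid1b: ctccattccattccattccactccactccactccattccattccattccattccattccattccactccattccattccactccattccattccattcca
Pou4f1: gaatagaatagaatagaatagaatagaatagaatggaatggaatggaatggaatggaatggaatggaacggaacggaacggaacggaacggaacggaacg
5730522E02Rik: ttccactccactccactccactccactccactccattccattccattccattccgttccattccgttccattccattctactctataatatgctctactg
Gm5528, upstream: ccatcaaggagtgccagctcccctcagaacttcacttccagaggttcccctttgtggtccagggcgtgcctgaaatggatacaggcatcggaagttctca
Mast4: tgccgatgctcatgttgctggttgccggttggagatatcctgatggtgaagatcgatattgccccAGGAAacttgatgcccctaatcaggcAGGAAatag
Gm5528, downstream: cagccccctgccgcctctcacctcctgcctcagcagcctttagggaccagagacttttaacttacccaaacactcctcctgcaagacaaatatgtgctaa

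The first 3 of these sequences were tandem arrays of 5-base units such as CATTC and CACTC, read on either strand as GAATG and GAGTG. In the Arid1b window only 5.19% of the 24-base words occurred once in the genome, compared with 22.1% in the Pou4f1 window and 49.4% in the 5730522E02Rik window. The share was 92.2% at Mast4 and 100% at both Gm5528 members. Windows with at least 8 CATTC or CACTC units numbered 5 of 358 members, 0 of 708 distal replicate 1-only peaks with WGATAR, 0 of 247 distal shared peaks without WGATAR and 0 of 204 promoter replicate 1-only peaks without WGATAR. The Pou4f1 window, with 7 such units, is not among the 5. A count of 0 allows shares of up to 0.424%, 1.21% and 1.47% in these classes. An array leaves little room in a window for WGATAR, which the 708 peaks must hold, so the rule bears on the 0 of that class. This count was chosen after the sequences had been seen and was not tested.

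A second kind of member carried WGATAR a short way outside the window that the rule searched. The sequences below are 200 bp around the summit with WGATAR or its complement in capitals, so that the capitals lie outside the central 100 bases. They are 2 members of high fold enrichment in unique sequence, chosen after their values were seen. They lie at chr7:122377474-122377673 (intergenic, nearest start site Gm6816) and chr9:122996818-122997017 (an intron, nearest start site Zdhhc3).
Gm6816: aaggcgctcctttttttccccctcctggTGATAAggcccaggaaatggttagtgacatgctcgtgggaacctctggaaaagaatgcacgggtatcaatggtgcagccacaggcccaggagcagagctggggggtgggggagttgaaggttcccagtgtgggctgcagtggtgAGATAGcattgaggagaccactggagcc
Zdhhc3: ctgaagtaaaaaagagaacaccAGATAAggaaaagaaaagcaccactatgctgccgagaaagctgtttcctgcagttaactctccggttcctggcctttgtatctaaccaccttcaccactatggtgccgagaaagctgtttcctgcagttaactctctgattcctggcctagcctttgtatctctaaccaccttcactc

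Other members had no WGATAR in these 200 bp. Those shown here carried CAGGAA, the 6-base word that differed most between summits and flanks (capitals, with its complement TTCCTG), or were rich in CpG (capitals). They were also chosen after their values were seen, and lie at chr13:13630984-13631083 (Lyst), chr10:83907265-83907364 (Nuak1) and chr11:62416195-62416294 (Trpv2), all intergenic.
Lyst: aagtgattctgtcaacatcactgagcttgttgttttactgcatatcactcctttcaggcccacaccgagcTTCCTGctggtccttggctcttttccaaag
Nuak1: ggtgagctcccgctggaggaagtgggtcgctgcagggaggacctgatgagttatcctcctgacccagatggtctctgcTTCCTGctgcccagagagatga
Trpv2: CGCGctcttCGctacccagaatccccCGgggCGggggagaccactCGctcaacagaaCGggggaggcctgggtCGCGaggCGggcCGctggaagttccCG

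The fold enrichment, as the authors called it, is a value that chose the members, so it is given as a description. It is the scaled ChIP fragments at the summit over local background, with 1 added to each. It ranged from 2.58 to 14.3 in the members, with a median of 4.41. The number of ChIP fragments at the summit, recovered from the deposited fold enrichment and p-value, ranged from 12 to 54 with a median of 21. These fragments are unscaled, whereas backgrounds are given at the depth of the input, so the counts are not on the same scale. The median width of the members was 232 bp. The fewest fragments of any listed peak were 12 in replicate 1 and 18 in replicate 2, and 111 members had 12 to 17. The part of these unlike floors in the lack of a replicate 2 peak was not tested, nor was that of the unlike coverage given under processing. The median fold enrichment was 4.99 in the 708 distal replicate 1-only peaks with WGATAR, 6.37 in the 247 distal shared peaks without WGATAR and 3.77 in the 204 promoter peaks of replicate 1 alone without WGATAR. The same classes had median fragments of 23, 34 and 21.5. A q-value of 1e-05 or less was listed for 259 members (72.3%), compared with 87.0% of all replicate 1 peaks and 86.4% of the replicate 1-only peaks with WGATAR. The members were thus the weaker of the distal classes by each of these listed values. Fragments at a summit count molecules from many cells, so occupancy in fewer cells and lower occupancy in each cell cannot be told apart.

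**Figure D1:**
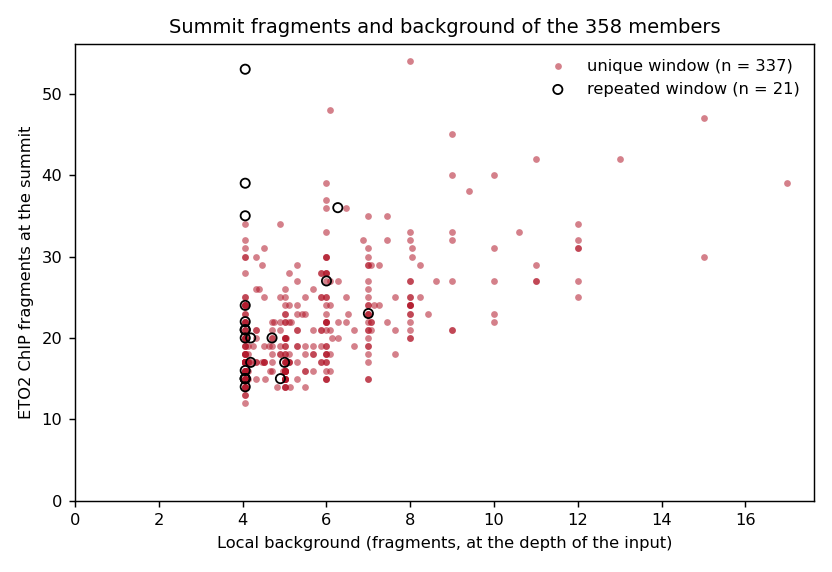
ETO2 ChIP fragments at the summit (vertical axis) against local background in fragments at the depth of the input (horizontal axis) for each of the 358 members; open circles are the 21 members in repeated sequence. The members span 12 to 54 fragments, and 85 sit at the lowest background of 4.06 fragments, among them the 3 members of highest fold enrichment, with 35, 39 and 53 fragments.

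The member with the highest fold enrichment was the tandem array near Arid1b, which encodes a DNA-binding subunit of a chromatin remodelling complex. It had a fold enrichment of 14.3 from 53 fragments (95% exact Poisson interval 39.7 to 69.3) and lay 368 kb upstream of the gene. The arrays near Pou4f1, a neuronal homeodomain factor, and 5730522E02Rik followed, with 10.5 (39 fragments, 27.7 to 53.3) and 9.49 (35 fragments, 24.4 to 48.7). Each of the 3 lay at the lowest background in the list, 4.06 fragments at the depth of the input, and more than 100 kb from the start site that names it.

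The other 7 of the 10 strongest members were in sequence of which at least 92.2% was unique. The Gm5528 members, 4.25 kb and 26.7 kb from the next replicate 1 peak, had fold enrichments of 9.24 (48 fragments, 35.4 to 63.6) and 8.16 (54 fragments, 40.6 to 70.5). The Mast4 intron, in a gene for a microtubule-associated kinase, had 9.22 (34 fragments, 23.5 to 47.5) and lay 2.16 kb from another replicate 1 peak. Introns of Epb4.1l4a, which encodes a cytoskeletal protein, and Kctd1, a nuclear repressor of the AP-2 family of factors, had 8.69 (32 fragments, 21.9 to 45.2) and 8.42 (31 fragments, 21.1 to 44.0). An intergenic member near Gm6816 had 8.16, from 30 fragments (20.2 to 42.8). The fragment intervals of these 6 members overlapped one another, and they cover counting error only. The order within the top 10 is by fold enrichment, which also depends on the background, and it was not tested.

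Members in repeated sequence were few. A window was called repeated when fewer than 80% of its 24-base words occurred once in the genome, which held for 21 members (5.87%, 95% Wilson interval 3.87 to 8.80), 4.80% of the replicate 1-only peaks with WGATAR and 3.24% of the distal shared peaks without WGATAR. Neither difference passed the Fisher exact test described below (adjusted exact p = 0.673 and 0.456). The 21 had a median fold enrichment of 5.32 (3.58 to 14.3). Of them, 3 were among the 10 strongest members and 5 held at least 8 CATTC or CACTC units. Reads with more than 1 placement were discarded by the authors, and the part of this step in these counts was not tested. All 24-base words were unique in 308 members (86.0%).

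The fold enrichments of the peaks next to each limit of the rule are given without a test, and the highest of them was outside, at 2410004B18Rik. Amotl2 and Adamts3 had members 1060 and 1081 bp from a start site (fold enrichment 3.94 and 3.59), while peaks 967 and 931 bp from 2410004B18Rik and Phf12 were outside (7.01 and 2.85). At the limit of overlap, the Fli1 member lay 1 bp from a replicate 2 peak and a Ccdc102a member 52 bp (2.77 and 4.53), whereas peaks at Pik3cb and N4bp1 overlapped a replicate 2 peak by 65 and 98 bp (4.71 and 4.36). At the limit of the motif window, the members at Ltbp1 and Gnal had a WGATAR whose nearest base was 45 bp from the summit and which ran past the edge of the window (5.31 and 4.36), and the peaks at Cd47 and Angpt1, with the nearest base also 45 bp away and the whole motif inside, were outside (5.18 and 4.18).

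To ask whether the GATA motif was missing from these sites or only from the window of the rule, WGATAR was counted in the bases 51 to 100 bp from the summit on both sides, which the rule did not use. It was present in 164 of 358 members (45.8%, 95% Wilson interval 40.7 to 51), compared with 15.6% (13.2 to 18.5) in the same stretches around points 500 bp away. The difference of 30.2 percentage points had a 2-sided exact McNemar p of 2.92e-16, the larger of the p-values against either flank. In 32 members WGATAR was present on both sides. The letters of WGATAR in reverse order (ATAG preceded by A or G and followed by A or T) served as a control string and were present in 8.38% (5.93 to 11.7) of the same stretches and in 10.5% of the flanking ones (exact McNemar p = 0.894). These tests, like the other tests here, compare sequences of the peaks of 1 library, and peaks are not replicates.

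Counted outward from the summit in bins of 25 bp on both sides, WGATAR was present in 29.6% of members between 50 and 75 bp, in 26.3% between 75 and 100 bp, in 18.4% between 100 and 125 bp and in 15.4% between 125 and 150 bp. In the 16 bins from 200 to 600 bp the share was between 5.31% and 12%, with a median of 8.52%. The members were thus above their own surroundings out to about 150 bp. Their nearest WGATAR lay a median of 93 bp from the summit, and 221 of the 358 called peaks (61.7%) held WGATAR somewhere within their called width. That share includes matches of the surrounding frequency, and it was not counted in flanks of equal width or in other classes. In 137 members the called peak held none.

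**Figure D2:**
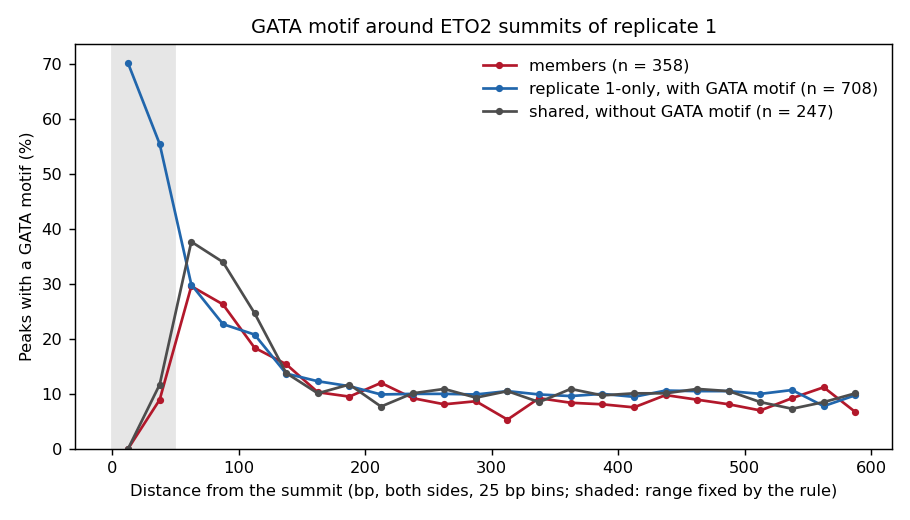
Share of peaks (vertical axis, %) with a GATA motif (WGATAR) at each distance from the summit (horizontal axis, bp, both sides, 25 bp bins) in the 358 members, the 708 distal replicate 1-only peaks with WGATAR and the 247 distal shared peaks without it; the shaded range is fixed by the rule. The members rise to 29.6% just outside the shaded range and fall to between 5.31% and 12% beyond 200 bp, and the shared peaks rise to 37.7%.

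The same bases were compared between classes. Of the distal replicate 1-only peaks with WGATAR at the summit, 42.9% also held it at 51 to 100 bp, and the members differed from them by 2.87 percentage points (95% Newcombe interval −3.41 to 9.18, Fisher test, adjusted exact p = 0.396). Of the distal shared peaks without WGATAR at the summit, 56.7% held it at 51 to 100 bp. The members were lower than these by 10.9 points (interval of the difference −18.8 to −2.77, adjusted exact p = 0.0206, Benjamini-Hochberg over both tests). By this count, then, GATA motifs just outside the window were less frequent in the members than at the shared peaks chosen by the same motif rule, and above the flanks in both, which held WGATAR in 15.6% of cases for the members and 16.4% for the shared peaks.

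The fragments of the members, a listed value that the rule used, are set beside the outer GATA motif without a test. Of the 111 members with 12 to 17 fragments, 36.9% (28.5 to 46.2) had WGATAR at 51 to 100 bp. The share was 46.0% of the 87 members with 18 to 21 fragments, 50.6% of the 77 with 22 to 25 and 53.0% (42.4 to 63.4) of the 83 with 26 to 54. Members with the outer motif had a median fold enrichment of 4.68 and 22 fragments, and the 174 members with no WGATAR in 200 bp had 4.16 and 19 fragments.

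In SCL complexes an E-box often precedes the GATA motif at a fixed spacing. The pattern CTG, then 8 to 10 bases of any kind, then WGATAR, on the same strand and on either strand of the genome, was present in the 240 bp around the summit in 64 members (17.9%, 14.3 to 22.2) and in 3.35% of flanking windows of that length (2-sided exact McNemar p = 2.86e-09). The pattern and the length were chosen after the data had been seen. WGATAR is part of the pattern and was by itself above the flanks here. No other spacing was counted, so this test cannot tell a preferred spacing from the frequency of WGATAR. It was present in 24.7% of the distal shared peaks without WGATAR, 36.7% of the replicate 1-only peaks with WGATAR and 32.0% of all replicate 1 peaks. The difference between classes was not tested, since the rule bars part of these bases in the members.

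To describe what the summit windows themselves shared, 25 listed motifs were searched on either strand of the 100 bp summit window and of windows of that length lying 500 bp to each side. Of the 25, 1 was higher at the summits (4.0%) and 0 were lower by a 2-sided exact McNemar test with Benjamini-Hochberg adjustment. At an unadjusted p under 0.05, 4 were higher and 2 lower. The motif that rose was AGGAA, the core read by ETS factors such as FLI1 and ERG, in 165 members (46.1%, 41.0 to 51.3) compared with 33.0% of flanks (adjusted exact p = 0.0147). It was present in 43.5% of all replicate 1 windows. The call was lost in members with no replicate 2 peak within 1 kb (adjusted exact p = 0.058), in those with no WGATAR in 200 bp (0.716), and in those whose flanks also lacked WGATAR (0.112), with differences of 12.1, 11.5 and 13.6 percentage points against 13.1 in all members.

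E-boxes came next. CAGATG was present in 15.1% of member windows and 7.96% of flanks (adjusted exact p = 0.0508, and 14.8% of all replicate 1 windows). CAGCTG was present in 12% and 5.59% (adjusted exact p = 0.0933, 12.6% of all). CACCTG was present in 7.82% and 5.59% (adjusted exact p = 0.893, 6.04% of all), and the general E-box CANNTG, which holds these 3, in 49.7% and 40.9% (adjusted exact p = 0.188, 45.4% of all). None of the E-boxes passed the threshold in the members. CAGATG passed it under 5 of the alternatives, CAGCTG under 2 and the general E-box under 1, and CACCTG was not followed there. RUNX sites (TGTGGT) were present in 10.1% of member windows and 9.64% of flanks, with 10.8% in all replicate 1 windows.

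The remaining motifs did not pass the test. The GATA core GATA, which the rule removes in part, was present in 30.7% of members and 34.8% of flanks (73.7% of all replicate 1 windows), and its form outside the rule, preceded by A or T and followed by C or T, in 16.2% and 10.6% (14.2% of all). The control string was present in 5.59% and 11.9% (13.0% of all, adjusted exact p = 0.0933) and CCAAT in 6.98% and 12.6% (7.28% of all, adjusted exact p = 0.0933). Matches of the control string can overlap WGATAR, as in AGATAGA, so the rule also removes it in part at the summits. For factors that act in mesoderm and its derivatives, the shares were 11.5% and 6.98% for MEIS and TGIF (TGACAG, 10.6% of all), 9.78% and 6.98% for TEAD (GGAATG, 8.01% of all), 8.94% and 8.10% for T-box factors (GGTGTG, 6.04% of all), and 3.35% and 6.42% for forkhead factors (TAAACA, 7.19% of all). SOX (ACAATG) had 5.59% and 4.61% (5.31% of all), LEF and TCF factors (CTTTGA) 5.87% and 6.70% (6.98% of all), and homeobox factors (TAATTA) 1.12% and 2.23% (1.03% of all).

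Among motifs of widely expressed factors, the KLF and SP1 site CCAACC was present in 7.54% of member windows and 4.61% of flanks (4.24% of all), the CACCC box CCACCC in 9.22% and 9.36% (9.42% of all) and the GC box GGGCGG in 4.19% and 2.51% (4.75% of all). AP-1 (TGANTCA) had 2.51% and 2.93% (2.48% of all), the nuclear receptor site AGGTCA 8.38% and 7.26% (6.04% of all), the GFI1 site AAATCA 5.87% and 7.96% (3.94% of all), the octamer ATGCAAAT 0.559% and 0.279% (0.257% of all) and the CTCF core CCANNAGGG 3.35% and 1.54% (2.36% of all). These strings overlap in places, as TEAD's GGAATG with the 5-base arrays, and a match is not a bound site.

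**Figure D3:**
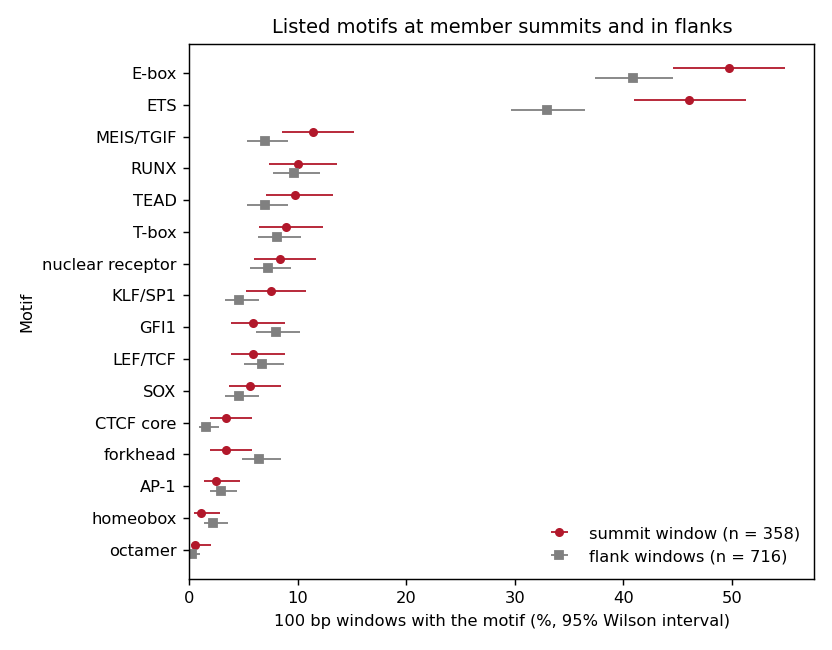
Share of 100 bp windows (horizontal axis, %) with each of 16 listed motifs that go by a factor or box name (vertical axis) at the summits of the 358 members (circles) and in their 716 flank windows (squares), with 95% Wilson intervals. ETS lies at 46.1% against 33.0%, and the E-box at 49.7% against 40.9%.

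Without a choice of motifs, each 6-base word and its complement was compared between summits and flanks in the same way. Of 2076 words tested, 7 were higher (0.337%) and 6 were lower (0.289%) at member summits. CAGGAA, which holds the ETS core, was present in 100 members (27.9%) compared with 9.50% of flanks (adjusted exact p = 2.29e-05). CAGCAG was present in 80 (22.3%) compared with 8.94% (adjusted exact p = 0.00255). The shares of summits and flanks were 21.2% and 8.66% for GCAGGA, 22.6% and 11.0% for CACAGG, 19.6% and 8.38% for ACAGGA, 20.1% and 8.94% for AGCAGG, and 17.3% and 7.82% for CAGGCA. Words of this group overlap in sequence, and 71 of the 132 windows with ACAGGA or GCAGGA also held CAGGAA. At least 1 of the 7 words was present in 253 members (70.7%). The words had been called in these same windows, and this share was not counted in flanks or in other peaks. Singly, they were in 15.1% (CACAGG) to 24.7% (CAGGAA) of all replicate 1 windows.

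The 6 words that were lower consisted of A and T alone. Median G+C was 52.0% in the summit windows and 47.5% in the flanks, and the rule barred WGATAR from the summits only. The part of base composition and of the rule in the words called, higher or lower, was not tested. AATAAA was present in 2.23% of summits and 11.6% of flanks (adjusted exact p = 0.00255), and AATATA, in 4.75% of flanks, was present in 0 of 358 summits, which allows a share of up to 0.838% (adjusted exact p = 0.0253). Shares were 1.96% and 9.64% for AAAATA, 1.96% and 9.36% for ATAAAA, 0.279% and 6.28% for ATATAA, and 0.838% and 6.70% for TAATAA. Among members whose flanks also lacked WGATAR, an alternative chosen after the data were seen, 261 members remained, 1 word was higher and 0 were lower. The word that stayed higher there was CAGGAA. Fewer members were compared there, and the flanks, like the summits, held no WGATAR. The part of either in the lower counts was not tested.

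The matches to AGGAA were also counted by the base before them, after the data were seen and with no test of the difference between words. CAGGAA was in 27.9% of summits and 9.50% of flanks, whereas AAGGAA was in 9.50% and 12.4%, GAGGAA in 14.2% and 11.3% and TAGGAA in 6.42% and 5.31%. In bins of 20 bp, AGGAA was in 14.8% of members at 0 to 20 bp from the summit towards higher coordinates and in 15.4% at 20 to 40 bp. Towards lower coordinates it was in 13.4% at 0 to 20 bp and in 10.1% at 20 to 40 bp, and beyond 40 bp on either side between 8.10% and 12.6%.

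CAGGAA was frequent in the other classes too. It was present in 21.7% of the replicate 1-only peaks with WGATAR (Fisher test, adjusted exact p = 0.119 over the words called and both classes), 29.1% of the distal shared peaks without WGATAR (adjusted exact p = 0.935) and 24.7% of all replicate 1 windows. Of the words called, CACAGG was higher in the members than in the peaks with WGATAR (22.6% and 13.3%, adjusted exact p = 0.00202), as was GCAGGA (21.2% and 13.4%, adjusted exact p = 0.0123), and ATAAAA was lower (1.96% and 8.76%, adjusted exact p = 0.00013). The word ATAAAA can share bases with WGATAR, which that class must hold. The rule also lowers the G+C of that class, and its part in the differences of CACAGG and GCAGGA was not tested. Against the class of shared peaks, the word ATATAA was lower (0.279% and 3.24%, adjusted exact p = 0.0272), and the other 12 words called did not pass.

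The listed motifs were also compared between the members and the other distal classes. Of 47 pairs of motif and class, 1 was higher in the members (2.13%) and 0 were lower by a 2-sided Fisher exact test with Benjamini-Hochberg adjustment. At an unadjusted p under 0.05, 5 were higher and 2 lower. The KLF and SP1 site CCAACC was present in 27 members (7.54%) and in 2.54% of the replicate 1-only peaks with WGATAR, a difference of 5.0 points (95% Newcombe interval 2.28 to 8.34, adjusted exact p = 0.0131). The rule lowers the G+C of that class, and its part in this difference was not tested. The CACCC box (9.22% and 8.76%, adjusted exact p = 0.966) and the GC box (4.19% and 1.41%, adjusted exact p = 0.134) did not pass against the same class. Against the shared peaks without WGATAR (3.24%) the difference of 4.30 points (0.502 to 7.88) did not pass (adjusted exact p = 0.218). ETS differed by 2.59 points (−3.70 to 8.90) from the former and by −3.30 points (−11.3 to 4.76) from the latter, and the E-box by 2.55 (−3.79 to 8.86) and 0.328 (−7.73 to 8.37). The call for CCAACC was lost without chromosomes 1 and 8 and with no WGATAR in 200 bp.

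Base composition is given against the other classes, though the rule bears on it. The G+C content of the 100 bp window had a median of 52.0% in the members, 49.0% in the replicate 1-only peaks with WGATAR, 53.0% in the shared peaks without WGATAR and 65.5% in the promoter peaks. It lay above the median of all replicate 1 windows in 197 members (55%), compared with 33.8% in the peaks with WGATAR and 59.1% in the shared peaks without WGATAR (adjusted exact p = 0.587). WGATAR is itself poor in G and C, so the rule lowers the value of the class that must hold it, and the difference from that class is a description. Outside the window, at 51 to 100 bp, the medians were 51%, 49.0% and 51%, and in the flanks 47.5%, 46.0% and 46.5%, in the same order of distal classes.

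CpG-rich windows, with an observed over expected CpG ratio of at least 0.6 and G+C over 50%, numbered 31 in the members (8.66%, 6.17 to 12). The share was 2.26% in the replicate 1-only peaks with WGATAR, a difference of 6.4 points (3.55 to 9.88). Against the 3.64% of the shared peaks without WGATAR the difference of 5.01 points (1.01 to 8.80) did not pass (adjusted exact p = 0.0814). Of the 13 pairs of feature and class tested, these composition measures against the peaks with WGATAR were the 2 past the threshold, both higher in the members (15.4%), and 0 were lower. The rule acts on the G+C of that class, which is also a part of the CpG criterion, so neither is independent of how the members were chosen. At an unadjusted p under 0.05, 3 were higher and 0 lower. The CpG-rich members had a median fold enrichment of 3.90 and 20 fragments, and 8 of the 31 held WGATAR in 200 bp, compared with 176 of the 327 others. Among the 31, chosen after their values were seen, were a member 2.12 kb from the start site of Hes1, the Notch-induced repressor, with 20 fragments (12.2 to 30.9), and a member 136 kb from Gli2, a Hedgehog effector, with 15 (8.40 to 24.7).

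**Figure D4:**
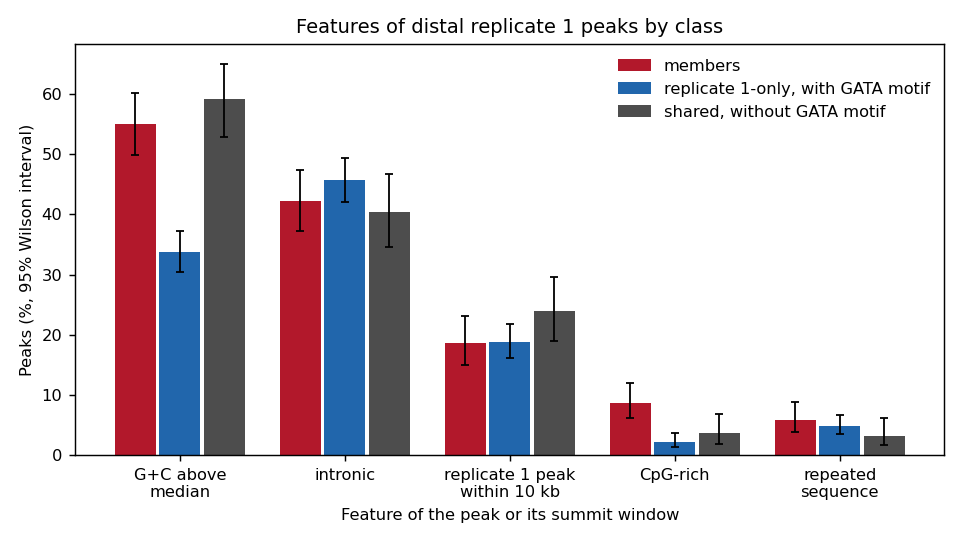
Share of peaks (vertical axis, %) with each feature (horizontal axis) in the members and the other distal classes of replicate 1, with 95% Wilson intervals. High G+C is present in 55% of members against 33.8% of the peaks with a GATA motif, and CpG-rich windows in 8.66% against 2.26%, both partly set by the rule; no difference in the remaining features passed the test.

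By position, 193 members were intergenic (53.9%, 48.7 to 59.0), 151 intronic (42.2%), 11 in coding exons (3.07%) and 3 in untranslated regions (0.838%). All replicate 1 peaks had 51%, 42.4%, 2.27% and 4.37% in the same order. Intronic share passed the test neither against the peaks with WGATAR (45.8%, a difference of −3.58 points, interval −9.80 to 2.74, adjusted exact p = 0.582) nor against the shared peaks without it (40.5%, 1.69 points, −6.29 to 9.56, adjusted exact p = 0.871). Members lay a median of 21.3 kb from the nearest protein-coding start site, with 61 members between 1 and 5 kb, 107 between 5 and 20 kb, 82 between 20 and 50 kb, 48 between 50 and 100 kb, 56 between 100 and 500 kb and 4 beyond. Start sites of other transcripts lay within 1 kb of 8 members (2.23%), such as the Trpv2 member printed above, whose midpoint was 0.116 kb from one.

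The 11 members in coding exons compared with 3 of the 708 replicate 1-only peaks with WGATAR (3.07% and 0.424%), a comparison chosen after the values were seen and not tested. The distal shared peaks without WGATAR had 2 of 247 (0.81%). The rule lowers the G+C of the class with WGATAR, and its part here was not tested. The 11 members were in exons of Hoxb4, a homeodomain factor of blood progenitors, Sh2b3, an adaptor that restrains cytokine signalling in blood cells, Vcan, a matrix proteoglycan, Abcc3, an export pump, and of Amigo2, Wfdc1, Mphosph9, Topors, Xrra1, Zfp771 and Spag1. The Hoxb4 exon had 17 fragments (9.90 to 27.2), the Sh2b3 exon 18 (10.7 to 28.4) and the Vcan exon 14 (7.65 to 23.5), and no coding exon member exceeded 27. The members in untranslated regions were in Aplnr, the apelin receptor gene of early mesoderm and vessels, with 35 fragments (24.4 to 48.7), in Stab2, a scavenger receptor gene of sinusoidal endothelium, with 30 (20.2 to 42.8), and in Ypel4 with 32 (21.9 to 45.2).

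Members were spread over 20 chromosomes, with the most on chromosome 8 (39, 10.9%) and chromosome 1 (32, 8.94%), where 8.95% and 7.37% of all replicate 1 peaks lay. The median local background of members, at the depth of the input, was 7 fragments on chromosome 8, 6 on chromosome 1 and 5 on the other autosomes together. The part of the background in these counts was not tested. No stretch held 3 or more members within 50 kb of the next. There were 13 such pairs, among them 1 at Aplnr and Lrrc55, 1 at Gse1 and 1 at Bhlhe40.

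The rule bars overlap of a member with any of the 1873 peaks of replicate 2. Of the distances below, only the share within 10 kb is set beside that of another class. The median gap to the nearest replicate 2 peak was 277 kb, with 16 members (4.47%) within 1 kb, 46 (12.8%) within 10 kb and 120 (33.5%) within 100 kb. Within 10 kb the share was 10.9% for the replicate 1-only peaks with WGATAR, a difference of 1.97 points (−1.99 to 6.36, adjusted exact p = 0.587). Another replicate 1 peak lay within 10 kb of 67 members (18.7%), compared with 18.8% of the peaks with WGATAR (adjusted exact p = 1.0) and 23.9% of the shared peaks without WGATAR (adjusted exact p = 0.415). In all, 332 genes had the nearest start site of a member. Of these, 310 had 1 member, 18 had 2 and 4 had 3 (Bmper, Gm1968, Gse1 and Tbx3). A shared peak was nearest to the same gene for 77 of the 332 (23.2%), and for 211 (63.6%) the replicate 1 peaks near the gene were members alone. These shares were not counted for the genes of other peaks. The 2335 replicate 1 peaks were nearest to 1749 genes, so few peaks fell to each gene in general.

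The genes nearest to members were then read against 8 lists of genes for blood, vessel, heart and other mesoderm programmes. Over all 22238 protein-coding genes, 1.49% were nearest to a member. The share was 2 of 27 for blood transcription factors (7.41%), 2 of 21 for genes of the ETO family and co-repressors (9.52%), 1 of 22 for red cell, megakaryocyte and heme genes (4.55%) and 2 of 28 for vessel genes (7.14%). It was 2 of 23 for heart genes (8.70%), 1 of 26 for paraxial, streak and cartilage genes (3.85%), 2 of 38 for signalling genes of the BMP, TGF-beta, Wnt and FGF pathways (5.26%) and 1 of 20 for pluripotency and epiblast genes (5.0%). Genes nearest to any replicate 1 peak numbered 1749 of the 22238 and were also more frequent in each list, with 16 of 27, 6 of 21, 9 of 22 and 10 of 28 in the first 4 lists and 11 of 23, 4 of 26, 10 of 38 and 3 of 20 in the others, in the same order. Each count of members is of 1 or 2 genes, genes with wide surroundings are nearest to more peaks, and no test was made.

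Among blood transcription factors, Runx1, which blood stem cells need in order to form, had 2 intergenic members upstream. The stronger, 170 kb away at chr16:92996512-92996859, had a fold enrichment of 6.34 from 29 fragments (19.4 to 41.6), and the weaker, 327 kb away, 4.26 from 18 fragments (10.7 to 28.4). The nearest WGATAR lay 318 and 369 bp from their summits. Of the 9 replicate 1 peaks nearest to Runx1, 6 were shared. Bach2, a repressor of lymphoid cells, had 1 intronic member of 22 fragments (13.8 to 33.3) and no other peak.

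Gse1, which encodes a protein of histone deacetylase co-repressor complexes, had 3 members in introns of the overlapping annotation Gm20388, between 32.3 and 154 kb upstream, with 15 to 33 fragments, among 9 replicate 1 peaks of which 5 were shared. Rybp, a subunit of variant Polycomb repressive complex 1, had a member 1.12 kb upstream with 40 fragments (28.6 to 54.5), a fold enrichment of 5.47 and WGATAR 57 bp from the summit. Gypc, the red cell glycophorin C gene, had an intronic member of 28 fragments (18.6 to 40.5) at 0.555 kb from a replicate 2 peak.

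The ETS factor genes of vessels and early blood, Erg and Fli1, had 1 member each. The Erg member, in an intron 17.9 kb from the start site, had 28 fragments (18.6 to 40.5), a fold enrichment of 5.51 and WGATAR 57 bp from the summit. The Fli1 member, 41.0 kb upstream, had 22 fragments (13.8 to 33.3), a fold enrichment of 2.77 and a replicate 2 peak 1 bp away. Its background was 10 fragments at the depth of the input. The nearest replicate 2 peak lay 1.17 kb from the Erg member, and both genes also had 1 shared peak.

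Tbx5, a heart T-box gene, had an intronic member of 17 fragments (9.90 to 27.2), and Wnt5a, a Wnt ligand gene, was nearest to a member of 19 fragments (11.4 to 29.7) 86.0 kb upstream. Tcf15, the paraxial mesoderm factor gene, had 1 intergenic member of 18 fragments (10.7 to 28.4) at 12 kb. None of these genes had a replicate 2 peak. Smad1, the BMP effector, had an intronic member of 25 fragments (16.2 to 36.9) and Fgfr1, an FGF receptor gene, a member of 31 (21.1 to 44.0). The background of the Fgfr1 member was 12 fragments at the depth of the input. Tbx3, a T-box gene of the epiblast, limb and heart, had 3 upstream members of 16 to 22 fragments between 48.4 and 272 kb away. The nearest WGATAR lay 57 to 98 bp from the summit of the members at Tbx5, Tcf15, Smad1 and Fgfr1, 71 and 87 bp at 2 of the Tbx3 members, 729 bp at the other, and 114 bp at Wnt5a.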

How the data were processed

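The methods name EGS and formaldehyde as crosslinkers, followed by sonication. Read pairs were aligned to mm9 with Bowtie, keeping reads with 1 placement. Duplicates were removed and peaks called with MACS2 2.0.10, in each replicate separately. In the deposited peak lists the authors give each peak a score made from its q-value, a fold enrichment, and p- and q-values as −log10. Fold enrichment was taken as the ratio of scaled ChIP fragments to background at the summit, with 1 added to each. The input was not analysed by itself, and a list of the whole series was not used here.

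Summit fragments and background were solved from fold enrichment and p with a Poisson model, and matched the deposited p of 100% of peaks (largest error 0.000208 in −log10 p). The solution implies a 1.34-fold scaling of the replicate 1 ChIP to its input. The lowest backgrounds imply an average coverage of 3.02 in the replicate 1 ChIP and 5.19 in the replicate 2 ChIP. The 2335 replicate 1 peaks had 12 to 206 fragments. Duplicates removed by position are not molecular identifiers, so intervals cover counting error only.

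Genes and start sites came from GENCODE annotation of the same build, and coordinates count from 1. A start site counted as protein-coding when its gene was. Motifs were counted with Python 3.11.15 and tested with SciPy 1.17.1 by 2-sided exact McNemar tests against windows 500 bp to each side (the larger p kept) and by 2-sided Fisher exact tests between classes, with Benjamini-Hochberg adjustment over each family and a threshold of 0.05. The 6-base words that make WGATAR were left out. The methods were tested on simulated data. Members, motifs and gene lists were chosen with earlier results of these data known. Named are the 10 strongest members (1 of them is not reported here), up to 4 genes per list, stretches of at least 3 members, up to 10 called words, and members at each limit of the rule. Others are said to be chosen after their values were seen.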

Additional observations from a re-analysis of the deposited data

How the results depend on the processing

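The members numbered 358, 174 with no WGATAR in 200 bp, 605 without replicate 2 (shared peaks then counted too) and 259 to 389 under the other alternatives. WGATAR at 51 to 100 bp exceeded the flanks by 29.4 to 34.3 points under every alternative run. With no WGATAR in 200 bp it has no value, and without replicate 1 there are no members. Listed motifs higher at summits numbered 2 with start sites of any transcript, with q-values of 1e-05 or less, in unique windows or with flanks at 1000 bp, and 7 without replicate 2. They numbered 0 with no WGATAR in 200 bp or with flanks lacking WGATAR. Listed motifs lower at summits numbered 1 when shared meant an overlap of 50% of the peak and 2 without replicate 2.

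Words higher at summits numbered 0 with no WGATAR in 200 bp, 54 without replicate 2 and 1 with flanks lacking WGATAR. Words lower numbered 0 with no WGATAR in 200 bp, with a minimum of 10 summit windows or with flanks lacking WGATAR, 1 at q-values of 1e-05 or less and 53 without replicate 2. These alternatives differ in the number of members or words tested, and the cause was not tested. With no WGATAR in 200 bp, CAGGAA still exceeded the flanks by 16.4 points (adjusted exact p = 1.0). Motifs that differed between classes numbered 0 with no WGATAR in 200 bp or without chromosomes 1 and 8, and 2 at an overlap of 50%. Features called stayed at 2 to 3. No difference past the threshold changed direction. The share with another replicate 1 peak within 10 kb, which did not differ detectably from the peaks with WGATAR, was −0.0702 points from theirs in the main setting and −1.68 to 0.990 points under the alternatives.

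No paired analysis was possible because the replicates are of 1 group and the members exist in 1 of them. A replicate 2 peak within 10 kb was not tested against the shared peaks, where the rule fixes it, nor were the strings that hold GATA against the peaks with WGATAR. With 12 to 54 fragments a summit, counting error was wide, and no ranking of members was tested.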
